A study of Mus musculus with 10 samples.

Results

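The mitochondrial respiratory chain passes electrons from nutrients to oxygen and uses the energy to pump protons across the inner mitochondrial membrane, which drives the synthesis of ATP. Complex I takes electrons from NADH and complex IV, cytochrome c oxidase, hands them to oxygen. Most of their subunits are encoded in the nucleus and imported, and a few core subunits are encoded in mitochondrial DNA. Colonic epithelial cells are known for a high oxidative metabolism, fed in large part by butyrate from gut bacteria.

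The genes described here are 7 nuclear genes of this machinery, namely Ndufa5 and Ndufb6 (accessory subunits of complex I), Ndufaf4 and Ndufaf6 (complex I assembly factors), Ndufa4 and Cox6c (subunits of complex IV) and Stoml2 (an inner membrane scaffold protein). They were 7 rows of the 55416 in the deposited count tables, chosen by name and by position. Row names were used only inside 3 regions of mm10, where earlier work on these tables found that counts follow gene names, namely chromosome 4 up to 59.9 Mb, chromosome 6 up to 30.3 Mb and chromosome 15 from 10.4 to 38.1 Mb. All 7 genes lay inside them, and the regions held 1415 rows. The regions were taken as given and not derived again. This is a narrow view of the chain. Inside the regions lay 2 of 37 listed nuclear complex I subunits, 2 of 16 complex IV subunits and 0 of the listed genes of complex III and of ATP synthase.

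Total RNA of whole colon was sequenced after 7 days of 2% DSS (dextran sulfate sodium), a sulfated polysaccharide that mice drink and that injures the gut lining and brings on colitis. All groups received DSS, so no untreated colon was compared. The knockout group had 5 libraries of mice lacking Vista (gene Vsir), an immune checkpoint protein, of which a first deposited table held 3, labelled VISTA knockdown, and a second table the other 2, labelled Vista-/-. The wild-type (WT) group also had 5, split between the tables in the same way. Strain, age and how the allele was made are not known from the labels. The design text speaks of biological replicates. For the 4 libraries of the second table no label names an animal in words. The column names of the first and the second table carry a distinct tag for each library, in the same form. Whether a tag stands for an animal was not known. The p-values cover only the library-to-library spread, which may be technical in the second table.

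Several facts of the libraries bear on every value below. Totals ran from 3691322 to 4071238 counts, and the 3 regions held 9.90% to 10.6% of a library. The row of the targeted gene, Vsir, lies on chromosome 10 outside the regions and held 27 to 97 counts in knockout and 0 to 82 in WT libraries, so it does not check the genotype labels. Of 15 colon epithelial marker genes listed for this work, 9 lay inside the regions, and of the 6 outside them 2 had 0 counts. Of the 9, 8 were tested and the water channel gene Aqp3 was at or below 1.05 CPM in every library, where CPM are counts scaled so that each library sums to 1000000. The intestinal cadherin gene Cdh17, an epithelial marker, was at 3087 to 3823 CPM. WT libraries 4 and 5 stood apart in other cell types' genes. The B cell gene Pax5 was at 10.7 and 5.15 CPM there, against 61.2 to 148.4 in WT 1 to 3. The connective tissue gene Osr2 was at 114 and 478 CPM, against at most 3.21 in any of the other 8 libraries. Other smooth muscle and fibroblast markers did not share this rise. Cav1, Cav2 and Col1a2 were lower in WT 4 and 5 than in WT 1 to 3, Cav2 at 40.0 and 36.3 CPM against 69.2 to 86.0. The ranges of Tpm2, Col15a1 and Sdc2 overlapped those of WT 1 to 3. Knockout 4, of the second table, stood apart in some epithelial genes. Spink4 was at 690 CPM there, against 1795 to 2854 in the other knockouts, and Klf4 at 1720 against 2886 to 3105. Cdh17, in contrast, was highest there, at 3823 CPM.

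Sequences around annotated transcript starts of the genes are shown first. Respiratory chain genes are known to share regulators, among them the transcription factors NRF1, the ETS-family factor GABP and YY1. RefSeq's table for GRCm38.p6, the mm10 assembly, gave 6 stretches of 300 bases for 5 of the genes, each from 250 bases before to 50 after a transcript start. Ndufaf6 and Cox6c were the others. Searched on both strands were GCGCA, any 1 base and GCGC for NRF1, CCGGAAG for ETS factors and ATGGCGG for YY1. Of 32851 such stretches in the table, 4.60% held the NRF1 letters, 8.86% the ETS letters and 4.05% the YY1 letters. The 4 printed here belong to an assembly factor, the 2 genes of chromosome 6 and Stoml2, and were picked to show a gene with each kind of match and Ndufa4 with none. Capitals mark the matches, and each sequence runs 5′ to 3′ on the strand of its gene.
Ndufaf4, chr4:24897833-24898132, plus strand: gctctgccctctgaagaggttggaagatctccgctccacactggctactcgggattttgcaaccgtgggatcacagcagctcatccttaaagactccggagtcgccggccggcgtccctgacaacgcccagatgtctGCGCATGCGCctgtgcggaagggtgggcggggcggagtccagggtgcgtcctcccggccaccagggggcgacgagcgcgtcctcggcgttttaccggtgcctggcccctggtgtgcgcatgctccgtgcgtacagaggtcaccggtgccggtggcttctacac
Ndufa5, chr6:24527477-24527776, minus strand: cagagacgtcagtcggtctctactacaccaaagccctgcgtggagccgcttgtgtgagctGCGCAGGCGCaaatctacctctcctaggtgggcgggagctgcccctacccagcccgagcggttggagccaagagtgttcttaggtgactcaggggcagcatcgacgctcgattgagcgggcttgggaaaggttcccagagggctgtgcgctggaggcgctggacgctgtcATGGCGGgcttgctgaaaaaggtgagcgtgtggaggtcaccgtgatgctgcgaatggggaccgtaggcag
Stoml2, chr4:43031335-43031634, minus strand: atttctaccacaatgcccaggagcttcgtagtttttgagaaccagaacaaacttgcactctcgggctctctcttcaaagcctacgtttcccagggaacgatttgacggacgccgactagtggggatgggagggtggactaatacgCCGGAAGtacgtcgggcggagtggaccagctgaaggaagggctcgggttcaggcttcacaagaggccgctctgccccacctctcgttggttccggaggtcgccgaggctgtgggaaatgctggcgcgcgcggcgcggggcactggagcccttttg
Ndufa4, chr6:11907401-11907700, minus strand: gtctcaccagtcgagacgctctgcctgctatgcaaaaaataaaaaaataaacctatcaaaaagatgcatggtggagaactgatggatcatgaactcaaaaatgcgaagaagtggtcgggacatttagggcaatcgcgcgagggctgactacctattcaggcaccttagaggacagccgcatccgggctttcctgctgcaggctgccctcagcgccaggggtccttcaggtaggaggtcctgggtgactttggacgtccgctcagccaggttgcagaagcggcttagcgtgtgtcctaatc

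In Ndufaf4 the NRF1 letters began 113 bases before the start, as a full palindrome. In the printed Ndufa5 stretch they began 190 bases before the start and YY1 letters 20 bases before it. The other Ndufa5 stretch overlaps this one and holds the same NRF1 letters, 26 bases before its own transcript start. The ETS letters began 105 bases before the start in Stoml2 and, on the opposite strand, 232 before in Ndufb6. The Ndufa5 stretches and that of Stoml2 lie inside the gene spans given below, downstream of the genes' 5′ ends in GENCODE M21. They are thus not upstream of every annotated transcript. The YY1 letters in Ndufa5 open with ATG, and whether they are coding sequence was not tested. Matches of different motifs did not overlap. NRF1 letters were thus in 2 of the 5 genes, ETS letters in 2 and YY1 letters in 1. A match is a description of the letters, and no match says only that these letters are not in this window.

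None of the 7 genes differed between Vista knockout and WT colons past the threshold, in all 10 libraries or in either table. The comparison asked whether respiratory chain transcripts differ between the genotypes in DSS colitis. By edgeR's quasi-likelihood test with the table as a covariate and Benjamini-Hochberg adjustment over all rows, 0 of 7 had an adjusted p under 0.05, where 5.63% of the 9736 rows tested did, and 8.90% of the 427 inside the regions. All 7 passed the filter on low counts. At an unadjusted p under 0.05 there were 4, namely Cox6c, Stoml2, Ndufa5 and Ndufa4, where 23.3% of all rows tested and 31.4% of those inside the regions were. DESeq2 put 1 past the threshold, Cox6c, where it called 8.71% of all rows, and limma's voom put 0, where it called 5.79%. No gene had all its knockout libraries on one side of all WT libraries, which 7.22% of the rows tested had (4.51% with knockout below). The estimates were small. Log2 fold changes of knockout over WT ran from −0.33 to 0.25, with 4 of 7 below 0 and a median of −0.14, against a median of 0.02 and 47.4% below 0 over all rows tested.

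**Figure D1:**
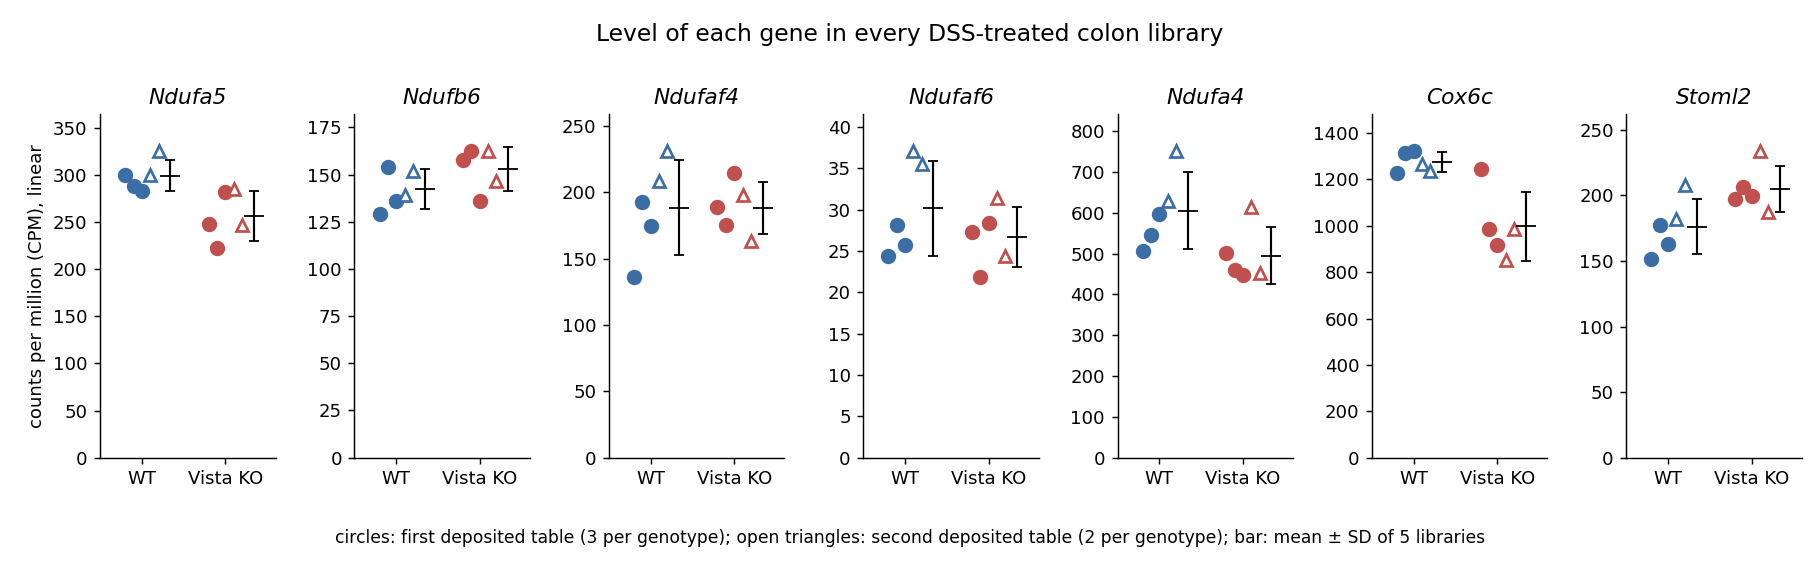
Level of each of the 7 genes in CPM (linear axes from 0) in the 5 WT and 5 Vista knockout libraries, with circles for the first deposited table, open triangles for the second and a bar for the mean ± SD. Cox6c shows 4 knockout libraries below all WT libraries and knockout 1 among them, and no gene has groups that fully separate.

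Among the complex IV genes, Cox6c (ENSMUSG00000014313, chromosome 15 from 35925886 to 35938246 in mm10, minus strand), which encodes a small accessory subunit of cytochrome c oxidase, had the largest estimate. It had 1244, 985, 918, 853 and 986 CPM in knockouts 1 to 5 and 1228, 1316, 1322, 1267 and 1236 CPM in WT 1 to 5. Knockout libraries 2 to 5 lay below every WT library, and knockout 1 lay inside the WT range. The mean was 997 ± 149 CPM in knockout and 1274 ± 43.7 in WT (SD, n = 5 each), so the knockout libraries spread more, with coefficients of variation of 14.9% and 3.43%. The log2 fold change was −0.33 ± 0.10 (SE), with a 95% interval of −0.55 to −0.11 and an adjusted p of 0.0815 in edgeR. Without knockout 1 it was −0.42 with an adjusted p of 0.0322, and the other single omissions gave adjusted p values of up to 0.163. DESeq2 gave −0.33 with an adjusted p of 0.0337, and voom −0.34 with 0.0641.

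Ndufa4 (ENSMUSG00000029632, chromosome 6 from 11900292 to 11907497, minus strand) was long listed as a complex I subunit and is now placed in complex IV. Its knockout libraries were at 501, 461, 447, 615 and 451 CPM and its WT libraries at 506, 544, 598, 628 and 751 CPM, in order of number. Knockouts 1, 2, 3 and 5 lay below all WT libraries, while knockout 4 lay within the WT range. Means were 495 ± 70.3 CPM in knockout and 605 ± 94.1 in WT (SD, n = 5 each). The log2 fold change was −0.25 ± 0.10 (SE), 95% interval −0.48 to −0.03, with an adjusted p of 0.170 in edgeR. It was −0.13 without the table covariate and the 2 WT libraries of the second table, which were the highest for this gene. The ratio of Cox6c to Ndufa4 counts within a library, which no scaling touches, was 1.39 to 2.48 in knockout and 1.65 to 2.43 in WT libraries.

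The complex I subunit genes had estimates of opposite sign. Ndufa5 (ENSMUSG00000023089, chromosome 6 from 24518666 to 24528013, minus strand), a subunit of the arm that faces the matrix, had 248, 222, 282, 286 and 248 CPM in the knockout libraries and 301, 289, 283, 300.3 and 326 CPM in the WT libraries. Only knockout 4 reached the WT range, above WT 3 alone. Its log2 fold change was −0.19 ± 0.08 (SE), 95% interval −0.37 to −0.02, with an adjusted p of 0.164 in edgeR. Ndufb6 (ENSMUSG00000071014, chromosome 4 from 40270591 to 40279421, minus strand), a subunit of the membrane arm, was at 158, 162, 136, 162 and 146 CPM in knockout and at 129, 154, 136, 139 and 152 CPM in WT libraries. The groups overlapped, with 3 knockout libraries above all WT. Its log2 fold change was 0.14 ± 0.09 (SE), 95% interval −0.06 to 0.33, with an adjusted p of 0.372 in edgeR.

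The complex I assembly factor genes showed no difference beyond the spread between libraries. Ndufaf4 (ENSMUSG00000028261, chromosome 4 from 24898083 to 24905001, plus strand), whose protein acts early in building complex I, was at 189, 175, 214, 198 and 164 CPM in knockout libraries and at 136, 193, 174, 208 and 231 CPM in WT libraries. WT libraries held both the lowest and the highest value. The log2 fold change was 0.036 ± 0.12 (SE), 95% interval −0.23 to 0.31, with an adjusted p of 0.889 in edgeR, and it turned to −0.065 without WT 1 and to −0.018 without knockout 3. Ndufaf6 (ENSMUSG00000050323, chromosome 4 from 11051045 to 11076205, minus strand), needed for an early subunit to join the complex, was the least abundant, at 27.3, 21.9, 28.3, 31.4 and 24.4 CPM in knockout and 24.4, 28.2, 25.7, 37.1 and 35.5 CPM in WT libraries. The highest were WT 4 and 5. Its 89 counts in knockout 2 gave a 95% exact Poisson interval of 17.6 to 26.9 CPM, which covers counting error only. The log2 fold change was −0.14 ± 0.13 (SE), 95% interval −0.41 to 0.14, with an adjusted p of 0.541 in edgeR. It turned to 0.049 without WT 4 and 5 and the table covariate.

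Stoml2 (ENSMUSG00000028455, chromosome 4 from 43027690 to 43031710, minus strand) encodes a stomatin-like protein that binds cardiolipin and prohibitins in the inner membrane and helps to organise respiratory complexes. It was at 197, 206, 199, 234 and 187 CPM in knockout libraries and at 152, 177, 163, 182 and 208 CPM in WT libraries. WT 5 lay above 4 of the knockout libraries, and the other 4 WT libraries lay below all of them. The log2 fold change was 0.25 ± 0.09 (SE), 95% interval 0.06 to 0.45, with an adjusted p of 0.122 in edgeR. Without knockout 5 it was 0.32 with an adjusted p of 0.0273, while the other single omissions gave adjusted p values of up to 0.271. The ratio of Cox6c to Stoml2 counts within a library was 3.65 to 6.30 in knockout and 5.95 to 8.11 in WT libraries, with 4 knockout libraries below all WT. The pair was chosen after their values were seen and holds the lowest and highest of the 7 estimates, so a shift follows from the choice. Of the other ratios computed, Ndufa5 to Ndufb6 had 4 knockout libraries below all WT, Cox6c to Ndufa4 1 and Ndufaf4 to Ndufaf6 0. No share over other pairs of genes was computed.

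**Figure D2:**
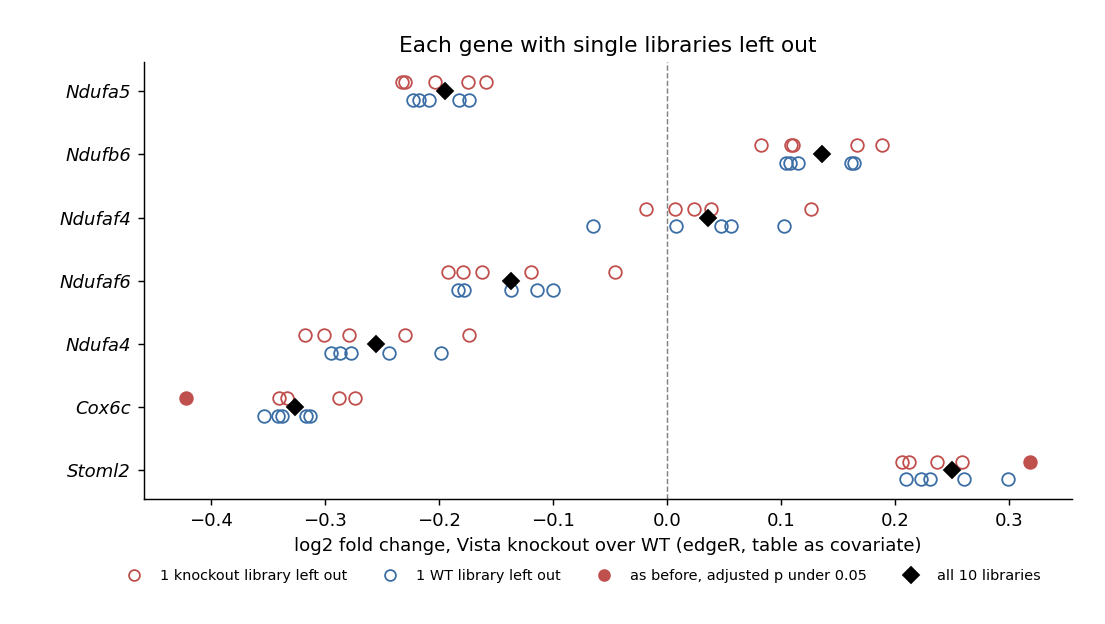
Log2 fold change of knockout over WT for each gene with all 10 libraries (black diamonds) and with 1 knockout (red) or 1 WT library (blue) left out, where filled circles have an adjusted p under 0.05 in edgeR. Cox6c is filled only without knockout 1 and Stoml2 only without knockout 5, and Ndufaf4 crosses 0.

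Within the first table, 3 against 3, 0 of 7 genes passed in edgeR, where 6.06% of 9829 rows did and 10.6% of the 425 inside the regions, and 1 had an unadjusted p under 0.05, where 26.1% of all rows and 34.8% of those inside did. DESeq2 and voom also gave 0, where they called 7.06% and 5.34% of all rows. The gene under 0.05 was Stoml2, at 201 ± 4.52 CPM in knockout and 164 ± 12.8 in WT (SD, n = 3 each), with a log2 fold change of 0.33 ± 0.09 (SE) and an adjusted p of 0.0617 in edgeR. Its 3 knockout libraries lay above its 3 WT libraries. Cox6c had −0.26 ± 0.12 with an adjusted p of 0.219, and it ran from −0.39 without knockout 1 to −0.14 without knockout 3. Ndufa4 had −0.19, Ndufa5 −0.18, Ndufb6 0.16, Ndufaf4 0.24 and Ndufaf6 0.020. For these 5 the adjusted p in edgeR lay between 0.242 and 0.948. Single omissions moved Ndufa4 to as little as −0.12, Ndufa5 to −0.11 and Ndufaf4 to 0.14, spread Ndufb6 over 0.098 to 0.27, and turned Ndufaf6 to −0.017 without knockout 3.

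Within the second table, 2 against 2, 0 of 7 passed in edgeR, where 0.856% of 9932 rows did and 1.38% of the 435 inside the regions, and 1 had an unadjusted p under 0.05, where 14.5% of all rows and 20.5% of those inside did. DESeq2 and voom again gave 0, where they called 4.42% and 0.282% of all rows. The gene under 0.05 was Cox6c, at 853 and 986 CPM in knockout 4 and 5 against 1267 and 1236 in WT 4 and 5. Its log2 fold change was −0.44 ± 0.15 (SE), 95% interval −0.82 to −0.06, with an adjusted p of 0.272 in edgeR. Of the other 6 genes, Ndufa4, Ndufa5, Ndufaf4 and Ndufaf6 had estimates of −0.37, −0.23, −0.28 and −0.38, and Ndufb6 and Stoml2 of 0.09 and 0.11. The intervals of these 6 genes spanned 0. Single libraries moved the estimates widely, Ndufa4 from −0.60 without knockout 4 to −0.17 without knockout 5, and Ndufaf6 from −0.56 to −0.22, Ndufa5 from −0.33 to −0.14 and Ndufaf4 from −0.42 to −0.16 with the same omissions. Ndufb6 ran from 0.014 to 0.15, and Stoml2 turned to −0.049 without knockout 4. Cox6c ran from −0.56 without knockout 5 to −0.34 without knockout 4.

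**Figure D3:**
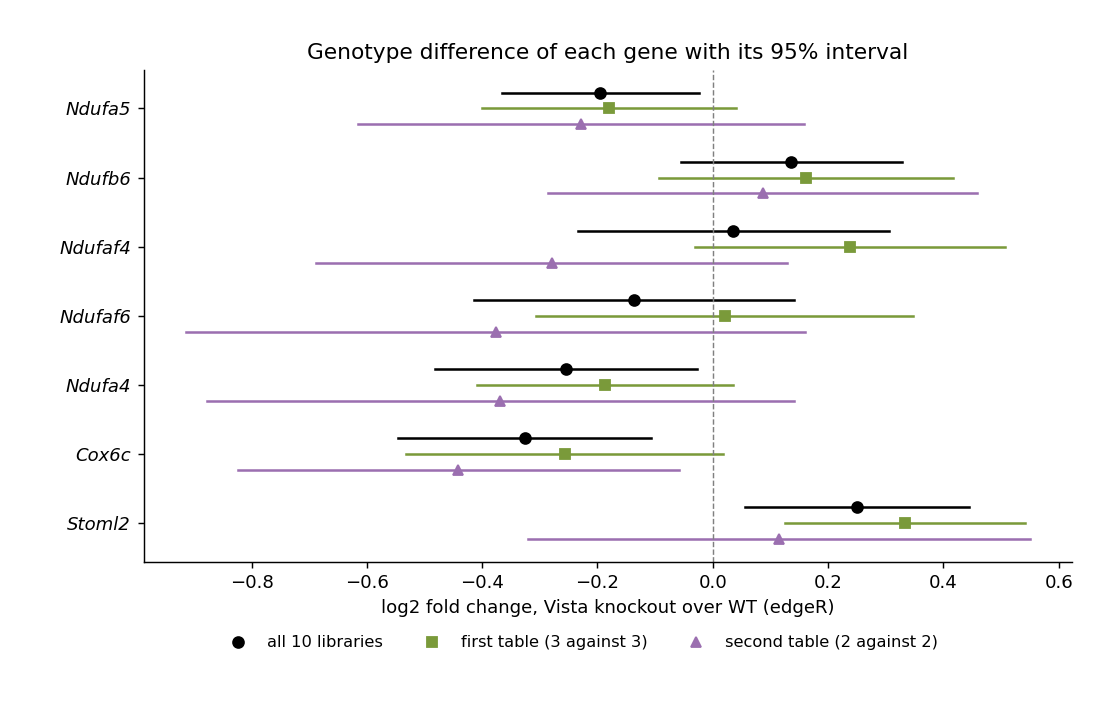
Log2 fold change of Vista knockout over WT with its 95% interval from edgeR, for all 10 libraries (black), the first table (green) and the second table (purple), with 0 as a dashed line. Cox6c, Ndufa4 and Ndufa5 lie left of 0 and Ndufb6 and Stoml2 right of 0 in all 3 fits, while Ndufaf4 is 0.24 (first table) and −0.28 (second table).

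An interaction term of genotype and table asked whether the difference between genotypes was unequal in the tables, and 0 of 7 genes passed in edgeR, where 2.05% of 9736 rows did and 2.58% of the 427 inside the regions. DESeq2 and voom gave 0 as well, where they called 3.53% and 1.58% of all rows. All 7 estimates were below 0, where 49.1% of all rows tested and 44.7% of those inside the regions were. Their median was −0.18, against 0.0098 over all rows tested and 0.068 inside the regions. The 7 estimates come from the same libraries, so their signs are not independent. With single libraries left out, 5 were below 0 without knockout 5, where Ndufa4 had 0.022 and Ndufa5 0.049, and 6 without knockout 3 or WT 5. The 1 gene with an unadjusted p under 0.05, where 14.6% of all rows and 19.9% of those inside had one, was Ndufaf4, with an interaction of −0.52 ± 0.20 (SE) on the log2 scale and an adjusted p of 0.261. From the first table to the second its WT mean went from 168 to 219.8 CPM and its knockout mean from 193 to 181 CPM. Ndufa4 and Ndufaf6 had their highest levels in WT 4 and 5, the libraries that stood apart in genes such as Pax5 and Osr2. The part of that difference in these levels was not tested.

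Without WT 4 and 5, and then without the table covariate, 0 of 7 genes passed in edgeR and 2, Cox6c and Stoml2, had an unadjusted p under 0.05. In that fit 0.771% of 10115 rows passed and 20.5% had an unadjusted p under 0.05. Cox6c had −0.35 with an adjusted p of 0.179, against −0.33 with all 10 libraries, and Stoml2 0.34 with 0.107, against 0.25. Ndufa5 and Ndufb6 had −0.16 and 0.15. Ndufa4, Ndufaf4 and Ndufaf6 moved most, to −0.13, 0.19 and 0.049. This fit set knockout libraries of the first and second table against WT libraries of the first only. Differences of table and of genotype thus cannot be told apart in it.

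Levels were compared between genes per length, as CPM per kb of exon over all 10 libraries. On the union of all GENCODE M21 exons, Ndufa4 was highest at 398 ± 70.6 (SD, n = 10), followed by Cox6c at 318 ± 50.1, Ndufa5 at 269.8 ± 29.6 and Ndufb6 at 224 ± 18.1. Ranges of neighbours in this order overlapped. Stoml2 was at 63.1 ± 7.86, Ndufaf4 at 48.3 ± 7.00 and Ndufaf6, between 17.7 and 30.0 with an SD of 3.98, lowest in CPM per kb, all below every library of the 4 subunit genes. The order at the top depends on the length used. On the principal transcript, which for Cox6c has 738 bases in place of 3567, Cox6c was highest at 1539 ± 242 and Ndufa4 followed at 902 ± 159.9 CPM per kb, their ranges overlapping at 1155 to 1791 and 733 to 1231. No source used here names the annotation used for counting, and the notes name unlike builds for the 2 tables. Whether alignment and annotation were of 1 build was not tested, so both the lengths and the levels between genes may be affected.

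Some reads of 3 genes could belong to neighbours. Ndufb6 shares 257 exon bases, 39.0% of its exons, with Smim27 on the opposite strand, Stoml2 shares 502 (16.6%) with the noncoding gene Gm26643, and Cox6c shares 250 (7.01%) with Vps13b. No strand setting was given, so reads of such pairs cannot be told apart. Of the stretches of 50 bases, the read length given for the second table, 307 of 3670 in Cox6c transcripts also occur in other genes. Among these, 202 occur in Vps13b, whose row held 8920 counts, and 96 in the pseudogene Cox6c2, whose row held 0. In Stoml2, 579 of 3374 are shared, with 404 in Gm26643, which had no row, and 175 in the pseudogene Gm5626, whose row held 3. Ndufb6 shares 208 of 659 with Smim27, whose row held 221. Ndufa4, Ndufa5, Ndufaf4 and Ndufaf6 shared 0 such stretches with annotated transcripts of other genes.

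Around these genes, 10 further genes of the mitochondrial lists lay inside the regions, all tested. Of the 10, 1 passed in edgeR, lower in knockout. Called lower were 2.93% of all rows tested and 7.03% of those inside the regions. The gene that passed was Pdk4, the kinase gene that holds back pyruvate entry into the citric acid cycle. It had a log2 fold change of −1.93 and an adjusted p of 0.00525. Its groups overlapped, at 5.90 to 13.1 CPM in knockout and 12.3 to 56.3 in WT libraries. The other 9 ran from −0.34 to 0.40. Over the 10 the median was −0.11 with 8 below 0, where rows inside the regions had a median of −0.03 and 53.6% below 0. Chchd7, a small intermembrane space protein gene listed here with complex IV assembly, was at 103 to 126 CPM in knockout and 134 to 151 in WT. Its groups did not overlap, where 4.51% of all rows tested had every knockout library below every WT library. Its log2 fold change of −0.25 ± 0.08 (SE) had an adjusted p of 0.0969 in edgeR. Decr1, a gene of fatty acid oxidation, had −0.34 with an adjusted p of 0.0915. Nrf1, the gene of the regulator whose letters are marked above, was at 129 to 162 CPM in knockout and 110.4 to 132 in WT, with 0.27 ± 0.09 and an adjusted p of 0.112. Pdp1, a phosphatase gene that counters Pdk4, had 0.40 with an adjusted p of 0.150.

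The rest of these 10 were closer to 0. Tomm5, of the outer membrane import pore, had a log2 fold change of −0.13, Mrpl50, of the mitochondrial ribosome, −0.13, Coq3, of coenzyme Q synthesis, −0.10, the aspartate-glutamate carrier gene Slc25a13 −0.034 and the complex II assembly gene Sdhaf3 −0.0055. Their adjusted p in edgeR lay between 0.358 and 0.989. Of the 305 listed genes outside the regions, 249 had fewer than 500 counts over all libraries, 76 of these had 0, and all 13 mitochondrially encoded subunits had 0. Names there were not taken to identify the transcript, so these rows were not read as the chain.

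**Figure D4:**
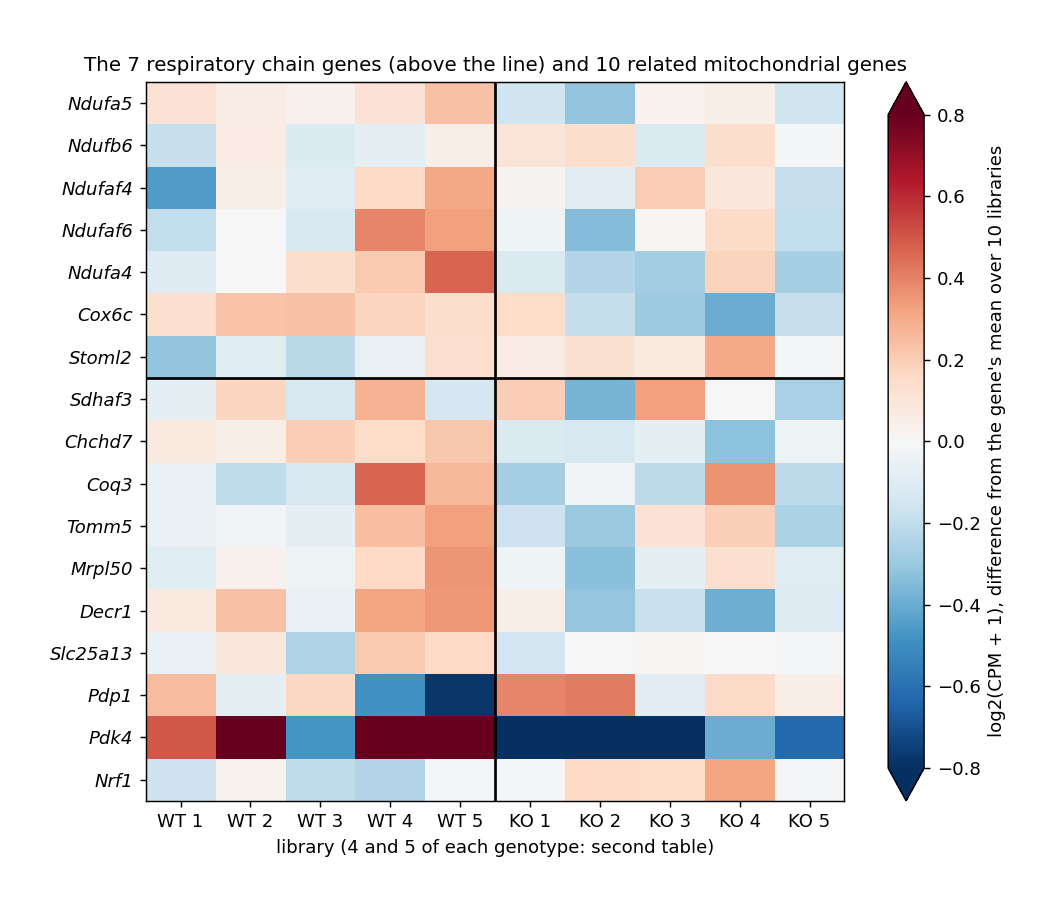
Difference of log2(CPM + 1) from each gene's mean over 10 libraries, for the 7 genes (above the horizontal line) and 10 related mitochondrial genes, WT libraries left and knockout libraries right, with colours saturating at ±0.8. Cox6c is above its mean (red) in all 5 WT libraries and below it (blue) in knockouts 2 to 5, and Pdk4 varies most. WT 4 and 5 are both above the mean for Ndufaf4, Ndufaf6, Ndufa4, Ndufa5, Cox6c, Mrpl50, Tomm5, Coq3, Decr1, Slc25a13, Chchd7 and Pdk4. They are not both above it for Ndufb6, Stoml2, Sdhaf3, Pdp1 and Nrf1.

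The mean profile of the 7 genes varied little, over 0.38 on the log2 scale from knockout 5 at −0.15 to WT 5 at 0.24. Among 354 other protein-coding genes tested inside the regions, the 5 with the smallest root mean square difference from it over the 10 libraries were Mrpl50 (0.082), Inip (0.084), Laptm4b (0.092), Vps50 (0.093) and Mtmr12 (0.097), where the median of the 354 was 0.24. The 7 themselves lay 0.12 (Ndufa5) to 0.22 (Cox6c) from their mean. Genes with nearly flat profiles are favoured by this measure.

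Cell type markers inside the regions moved with genotype in part. Of 8 tested epithelial markers, 3 were lower in knockout in edgeR, where 7.03% of the rows inside the regions were called lower, namely Car9 (−0.57), Galnt12 (−0.59) and Cftr (−0.69 on the log2 scale), at adjusted p values between 0.00791 and 0.0310, and 0 were higher. The other 5 were Esrp1 (−0.19), Grhl2 (−0.15), Spink4 (−0.11), Cdh17 (0.037) and Klf4 (0.21). The summed level of the 9 inside was 8443 to 11415 CPM in knockout and 9599 to 12442 in WT libraries. Smooth muscle and fibroblast markers had 0 of 6 called over all 10 libraries, at sums of 1408 to 2973 and 2000.4 to 3102 CPM. The 4 B cell and leukocyte markers had 0 called over all 10 libraries, at 414 to 717 and 187 to 607 CPM. By table, of the smooth muscle, fibroblast and leukocyte markers, Bach2 (−0.77, adjusted p 0.0301 in edgeR) and Cav2 (−0.57, 0.0441) were lower in knockout in the first. In the second, Pax5 (3.73, 0.0315) and Cd72 (2.37, 0.0406) were higher. Osr2 (−6.99, 0.0445) was lower there and was not tested over all 10 libraries. Inside the regions, 8% of rows were called lower in the first table, and 0.92% lower and 0.46% higher in the second. Of 2 enteric neuron markers Tac1 was higher and Penk lower. The part of cell composition in the estimates for the 7 genes was not tested, and in whole colon fewer cells of a type and less RNA per cell cannot be told apart.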

How the data were processed

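The deposited values were raw read counts per Ensembl gene identifier. Per the submitters' processing notes, the authors aligned reads with HISAT2 (2.2.1 for the first table) and counted them with featureCounts 2.0.1. The notes name the build as GRCh38, a human assembly, for the first table and mm10 for the second. No source used here names the annotation or a strand setting. GENCODE M21 named 52135 of the 55416 rows. The 3281 unnamed rows held 0.358% to 0.410% of a library and stayed in totals and tests. CPM were computed from column totals. The test of these counts was that of edgeR 4.0.16 under R 4.3.3 (TMM, expression filter by genotype, quasi-likelihood test, Benjamini-Hochberg adjustment, threshold 0.05), after a test on simulated data. Alternatives used DESeq2 1.42.0, limma 3.58.1 voom, other scalings and filters, and omitted libraries. No pair of libraries differed by counting noise only, the closest (WT 2 and 3) having a mean chi-square per row of 4.56. Named genes were the 7 genes, list genes inside the regions and the 5 nearest profiles. The genes, regions and lists were chosen with earlier results of these data known.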

Additional observations from a re-analysis of the deposited data

Results flagged for a closer look

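Libraries were flagged by a cut on the gap to the next library of the genotype, relative to the range of the group. None of the 7 respiratory chain genes had a flagged library, in 14 groups of 5 examined. Some gaps stayed under the cut, such as Cox6c in knockout 1, at 1244 CPM against 986 in the next library. Ndufa4 in knockout 4, at 615 CPM against 501, was another. Over 74 groups, which add related mitochondrial genes and cell type markers, 2 had a flagged library, where chance would give 3.7 at 1 in 20. Slc25a13 was lowest in knockout 1, at 137 CPM against 151 in the next library. The epithelial gene Klf4 was lowest in knockout 4, at 1720.4 CPM against 2886. The genotype difference differed between the tables in 4 marker genes by the interaction test in edgeR, with log2 values of 1.34 for Cav2, 3.10 for Bach2, 3.08 for Cd72 and 4.58 for Pax5 and adjusted p values of 0.00316 to 0.0113.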

How the results depend on the processing

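The count of 0 genes called held in all alternatives of the first table, the second table and the interaction. Over all 10 libraries it held with voom, without a low-count filter, with library totals, with the total inside the regions, without the table covariate, with a log2 minimum of 0.5, without WT 4 and 5, and with a filter from the model matrix, which was chosen after seeing the data. It was 1 with DESeq2 (Cox6c), where 848 rows were called in place of 548, and 0 to 1 as single libraries were left out. Omissions in the second table leave 1 library in a genotype, assumed to vary like the others. Ndufaf4 ranged from −0.065 to 0.13 over single omissions, and Ndufaf6 turned to 0.049 without WT 4 and 5 and the table covariate. The cause was not tested. No paired analysis was possible because library numbers were assigned in accession order and match no WT library to a knockout library. Libraries of 3691322 to 4071238 counts gave as few as 89 counts for Ndufaf6, which limits its precision.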
